A study of Mus musculus with 7 samples.

Results

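The 10 homeobox genes Otx1, Otx2, En1, En2, Gbx1, Gbx2, Emx1, Emx2, Vax1 and Vax2 pattern regions of the embryonic brain and form 5 pairs of paralogs. They were chosen by name, with earlier results of these data known. A RefSeq table (GRCm38.p6, the assembly called mm10) places 21631 protein-coding genes on an autosome or on chromosome X, and it held all 10. For each gene, called peaks of trimethylated lysine 27 on histone H3 (H3K27me3) were taken when they overlapped the gene body extended by 10 kb on both sides. The peaks came from chromatin immunoprecipitation and sequencing of basal epidermal progenitors, which had been sorted from newborn mouse back skin (postnatal day 0) as EpCAM-positive, Sca1-positive and high for alpha6-integrin. One list was deposited for control cells and another for Ring1a/b 2KO cells (2KO below), which lack both Ring1a and Ring1b. Each genotype had 2 labelled immunoprecipitation libraries and 1 list. The labels call the controls only control. The alleles and the driver of the deletion, and how many animals were used, are not given in the sources consulted. The titles of the 2KO libraries name H3K27me1, whereas their antibody field and the list name H3K27me3.

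H3K27me3 is laid down by Polycomb repressive complex 2 over genes that are kept silent, and often spreads into wide domains over developmental regulators. Ring1a and Ring1b are the ubiquitin ligases of Polycomb repressive complex 1, which marks histone H2A and can help to bring complex 2 to its targets. Otx2, a bicoid-type factor of forebrain and midbrain, and Gbx2, a factor of anterior hindbrain, repress each other and thereby place the midbrain-hindbrain boundary, around which En1 and En2 are expressed. Emx1 and Emx2 act in the dorsal telencephalon, and Vax1 and Vax2 in the optic stalk and ventral retina. En1 also acts outside the brain, in ventral limb ectoderm and in dermis.

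The control list held 3631 peaks over 24.8 Mb and the 2KO list 2340 peaks over 16.4 Mb. The lists give positions and no height, score or p-value, so depth is unknown and a place without a peak is not a place without the mark. Since replicates were not listed separately, no value has an error, and differences between genotypes or between paralogs could not be tested. Within 10 kb of the basal progenitor genes Krt5, Krt14, Trp63, Itga6, Epcam and Ly6a neither list held a peak. All 3 genes of dermal fibroblasts looked up (Pdgfra, Col1a1 and Twist2) had a control peak, and so did Sox10 and Kit of melanocytes and Sox17 of endothelium, while Mitf, Ptprc, Cd207 and Pecam1 had none. Peak lists hold no expression, so neither the sort nor the loss of Ring1a and Ring1b can be checked in them.

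All 10 genes had a control peak within 10 kb, and 8 of 10 had a 2KO peak. Over all protein-coding genes, 14.9% had a control peak and 11.2% a 2KO peak in the same window. Of all genes with a control peak, 59.8% also had a 2KO peak, and of the 653 genes with at least 10 kb of control peak in the window it was 81.2%. The count of 8 of 10 (80.0%, 95% Wilson interval 49.0 to 94.3, counting error only) is near that last share. The interval takes genes as independent. Yet the 2 genes without a 2KO peak, Emx2 and Vax1, lie 288.3 kb apart in 1 stretch without any 2KO peak. The 10 genes had 12 control peaks, which together measured 270.4 kb, and 157.9 kb of this (58.4%) lay under 2KO peaks. Over all 2887 control peaks within 10 kb of a protein-coding gene the share was 51.1%. Gene by gene the share ran from 0% at Emx2 and Vax1 to 100% at Otx2, with quartiles of 24.2 and 90.6%. Genes with at least 10 kb of control peak had quartiles of 24.6 and 92.2%. The median over the 10 genes was 51.5%, compared with 54.5% over all genes with a control peak and 64.4% over those with at least 10 kb. In each pair, the paralogs differed in the share of their control peak bases that lay under 2KO peaks (retention below) by 38.8 to 89.3 percentage points, with a median of 54.1. Differences between unrelated genes were not computed, so whether paralogs differ more or less than other genes was not tested. When a control peak counted only if at least 50% of it lay under 2KO peaks, this median was 89.3 points, and the Otx and Gbx differences were 100 and 94.4 points. That shift depends on the limit. The larger Gbx1 control peak, covered to 46.9%, then counted as 0%, while those of Emx1 (50.8%) and En1 (52.3%) just passed.

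**Figure D1:**
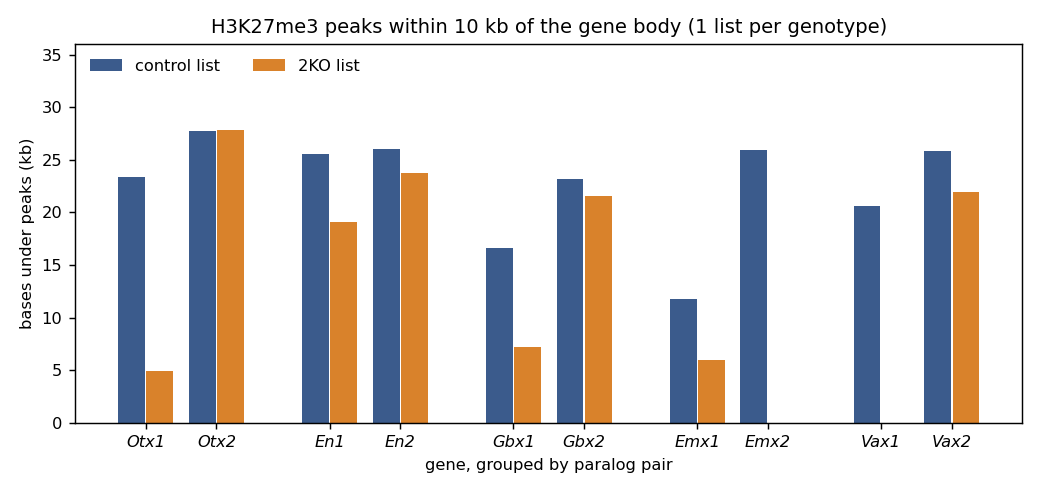
Bars give, for each of the 10 genes, the kilobases under control and 2KO peaks within 10 kb of the gene body, with no error bars because each genotype had 1 list. Control bars lie between 11.8 and 27.7 kb, whereas 2KO bars run from none at Emx2 and Vax1 to 27.8 kb at Otx2.

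The control domains were wide. Of the 12 control peaks, 7 measured 20 kb or more, a width that 190 of the 3631 control peaks reached. The widest was that of En1 (37.1 kb), followed by Vax2 (36.1 kb), Otx2 (31.6 kb), En2 (30.8 kb), Gbx2 (30.2 kb), Emx2 (27.8 kb) and Vax1 (21.0 kb). A further control peak of 17.3 kb, close beside that of Vax1, lay outside the window and is not counted here. The whole gene body lay under control peak at Otx2, En1, En2, Gbx2, Emx2 and Vax1. At Otx1 it was 94.5%, at Vax2 58.4%, at Gbx1 47.6% and at Emx1 44.0%. Vax2, Gbx1 and Emx1 are the longest of the 10 genes, at 27.1, 22.4 and 16.5 kb, and their control peaks covered 1 end of the gene and not the other.

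A separate table of RefSeq promoter sequences (GRCm38.p6) held 6 of the 10 genes, namely Otx2, En1, Gbx2, Emx1, Emx2 and Vax1. Each entry runs from 250 bases before to 50 bases after a transcript start. The sequences are shown because they lie inside the control domains and differ from gene to gene in whether a 2KO peak covers them. Capitals mark CG dinucleotides (CpG). For Otx2, which has 4 annotated starts, the outermost is shown.
Otx2, chr14:48667595-48667894, minus strand: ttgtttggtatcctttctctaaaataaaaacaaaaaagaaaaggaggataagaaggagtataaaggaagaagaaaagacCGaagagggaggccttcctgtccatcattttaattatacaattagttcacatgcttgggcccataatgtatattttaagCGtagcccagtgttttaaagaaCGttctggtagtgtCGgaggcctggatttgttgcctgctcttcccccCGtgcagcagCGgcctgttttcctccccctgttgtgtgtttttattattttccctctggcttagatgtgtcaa
En1, chr1:120602237-120602536, plus strand: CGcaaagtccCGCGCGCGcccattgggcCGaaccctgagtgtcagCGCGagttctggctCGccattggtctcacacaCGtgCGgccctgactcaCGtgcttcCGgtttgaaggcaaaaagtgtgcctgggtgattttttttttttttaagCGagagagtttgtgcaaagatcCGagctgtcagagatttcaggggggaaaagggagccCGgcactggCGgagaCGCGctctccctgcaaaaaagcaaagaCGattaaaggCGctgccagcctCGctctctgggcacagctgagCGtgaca
Gbx2, chr1:89931127-89931426, minus strand: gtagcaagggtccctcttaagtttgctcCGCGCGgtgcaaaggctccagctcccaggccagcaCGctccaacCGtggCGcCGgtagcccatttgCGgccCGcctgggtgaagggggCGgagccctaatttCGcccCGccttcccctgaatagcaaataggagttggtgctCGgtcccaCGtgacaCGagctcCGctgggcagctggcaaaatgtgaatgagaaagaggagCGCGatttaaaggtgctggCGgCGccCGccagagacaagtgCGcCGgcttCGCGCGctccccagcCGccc
Emx1, chr6:85187681-85187980, plus strand: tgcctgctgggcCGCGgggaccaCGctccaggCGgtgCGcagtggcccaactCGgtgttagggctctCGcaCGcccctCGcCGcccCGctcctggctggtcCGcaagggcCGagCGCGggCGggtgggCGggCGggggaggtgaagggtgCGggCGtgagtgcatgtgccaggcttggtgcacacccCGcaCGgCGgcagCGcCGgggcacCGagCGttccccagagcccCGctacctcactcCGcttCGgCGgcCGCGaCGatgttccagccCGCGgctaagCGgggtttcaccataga
Emx2, chr19:59458440-59458739, plus strand: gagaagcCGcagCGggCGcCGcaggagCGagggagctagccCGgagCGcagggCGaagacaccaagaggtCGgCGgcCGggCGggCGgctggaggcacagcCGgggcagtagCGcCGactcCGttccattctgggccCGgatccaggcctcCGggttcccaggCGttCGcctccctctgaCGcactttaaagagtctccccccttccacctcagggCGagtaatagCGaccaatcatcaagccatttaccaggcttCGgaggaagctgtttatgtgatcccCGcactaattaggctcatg
Vax1, chr19:59170348-59170647, minus strand: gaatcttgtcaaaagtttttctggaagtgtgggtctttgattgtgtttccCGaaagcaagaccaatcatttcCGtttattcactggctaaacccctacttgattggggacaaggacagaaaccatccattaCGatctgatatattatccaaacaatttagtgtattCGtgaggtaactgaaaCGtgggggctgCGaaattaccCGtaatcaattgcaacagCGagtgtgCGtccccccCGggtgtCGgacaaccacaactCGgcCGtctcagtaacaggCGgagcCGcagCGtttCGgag

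All 9 of these promoter entries lay wholly under a control peak. In the 2KO list the entries of Otx2 and Emx1 lay wholly under a peak, those of Emx2 and Vax1 wholly outside, and those of En1 and Gbx2 at the edge of one. Of the 300 bases, 123 of En1 and 168 of Gbx2 were under a 2KO peak. The promoter of Emx1 held 37 CpG, and 7.37% of 21045 protein-coding promoters held as many or more. Gbx2 held 27, Emx2 26 and En1 23, compared with a median of 13 over all promoters (quartiles 4 and 25) and of 19 over the 1601 under a control peak. Vax1 held 17, and the 4 Otx2 entries held 6, 8, 16 and 11 from the outermost inwards. Otx2, wholly covered in the 2KO list, and Vax1, not covered, both had fewer than En1, Gbx2, Emx1 and Emx2. Over all genes, the 834 promoters under peaks of both lists had a median of 16 CpG and the 767 under a control peak only a median of 21. The letters TAATTA, the core bound by many homeodomain proteins and the same on both strands, were found in the first and the third Otx2 entry and in that of Emx2. They were found in 4.47% of all promoters.

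In the Otx pair, Otx2 (chromosome 14, 48656781 to 48667644) kept its whole domain and Otx1 (chromosome 11, 21994764 to 22001651) kept a small part. The Otx2 peak ran from 48649954 to 48681524 in the control list (31.6 kb) and from 48649844 to 48681717 in the 2KO list (31.9 kb). Its edges thus differed by 110 and 193 bp, the closest match of the 8 genes with peaks in both lists. The domain also covered the lower-coordinate 12.2 kb of the long non-coding gene Otx2os1 in the control list and 12.4 kb in the 2KO list. Otx1, which acts in cortex and sensory organs, had 2 control peaks of 19.3 kb (21982006 to 22001275) and 6.87 kb (22002329 to 22009196). They were met by a single 2KO peak of 4.92 kb (21991842 to 21996756) that spanned the lower-coordinate end of the gene. The first control peak was covered to 25.5%, and the second, which reaches into Ehbp1, had no 2KO peak. Retention was 18.8% for Otx1 and 100% for Otx2. Their control peaks measured 26.1 and 31.6 kb in all, of which 23.4 and 27.7 kb lay within the windows.

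The engrailed genes both kept peaks in the 2KO list. En2 (chromosome 5, 28165696 to 28172190), which is expressed in midbrain and cerebellum, had a control peak of 30.8 kb (28150908 to 28181679). The 2KO list held 2 peaks there, of 13.9 kb (28151401 to 28165295) and 14.1 kb (28167017 to 28181147). Their outer edges lay 493 and 532 bp inside those of the control peak, and retention was 91.1%. En1 (chromosome 1, 120602487 to 120607991) had a control peak of 37.1 kb (120590503 to 120627632). Its 2KO peaks measured 4.87 kb (120597492 to 120602359) and 14.6 kb (120603770 to 120618325), and their outer edges lay 6.99 and 9.31 kb inside the control peak. Retention was 52.3%, so the En1 domain was shorter from both sides, whereas that of En2 ended at nearly the same places. Within the windows the control lengths were 25.5 kb for En1 and 26.0 kb for En2. Control peak filled 100% of the En1 window and 98.1% of the En2 window, so these lengths are set mainly by the windows.

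The Gbx pair showed a wider difference. Gbx2 (chromosome 1, 89927962 to 89931176) had a control peak of 30.2 kb (89917786 to 89948025), with 2KO peaks of 12.9 kb (89916719 to 89929570) and 17.3 kb (89931259 to 89948591). Their outer edges lay 1067 and 566 bp outside the control peak, and retention was 94.4%. Gbx1 (chromosome 5, 24504426 to 24526848), which is expressed in ventral forebrain and spinal cord, had a control peak of 15.4 kb (24516182 to 24531582) over its higher-coordinate end. A second control peak of 2.51 kb (24535679 to 24538190), which lay inside Asb10 at a distance of 8.83 kb from Gbx1, also fell within the window. The single 2KO peak measured 7.23 kb (24521856 to 24529084) and lay inside the first control peak, which it covered to 46.9%. The second had no 2KO peak. Retention was 40.4% for Gbx1.

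In the Emx pair the gene with the wider control domain had no 2KO peak. Emx2 (chromosome 19, 59458690 to 59465357), a factor of cortical area patterning and of the urogenital tract, had a control peak of 27.8 kb (59446833 to 59474620) and no 2KO peak. This peak also covered 11.8 kb of the antisense gene Emx2os. Emx1 (chromosome 6, 85187931 to 85204463), a factor of the dorsal telencephalon, had the shortest domain of the 10 genes, a control peak of 11.8 kb (85183410 to 85195207). The 2KO list held a peak of 5.99 kb there (85186128 to 85192117), and retention was 50.8%. Its edges lay 2.72 and 3.09 kb inside those of the control peak, and it ran from 1.80 kb before the start to 4.19 kb into the gene.

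The Vax pair differed by 89.3 points, more than the other pairs, although with 50% of a control peak required the Otx and Gbx pairs differed by more. Vax1 (chromosome 19, 59164480 to 59170397), a factor of optic stalk and ventral forebrain, had a control peak of 21.0 kb (59159807 to 59180761) and no 2KO peak. Vax2 (chromosome 6, 83711239 to 83738313), a factor of ventral retina, had a control peak of 36.1 kb (83690970 to 83727046), of which 89.3% lay under 2KO peaks. The 2KO peaks measured 33.0 kb (83677647 to 83710602) and 12.6 kb (83711363 to 83723955). The first of these began 13323 bp outside the control peak and overlapped 0.211 kb of Cd207, a gene of Langerhans cells that had no control peak within 10 kb. Of the Vax2 2KO peaks, 70.8% lay under the control peak. The other 7 genes with 2KO peaks had shares from 94.6 to 100%. In Vax2, then, the called length was 36.1 kb in the control and 45.5 kb in the 2KO list, whereas at Otx2 and Gbx2 the called lengths were nearly equal and at the other 5 they were smaller in the 2KO list. The domain also held the long non-coding gene Vax2os, whose 19.4 kb were covered in full in the control list.

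**Figure D2:**
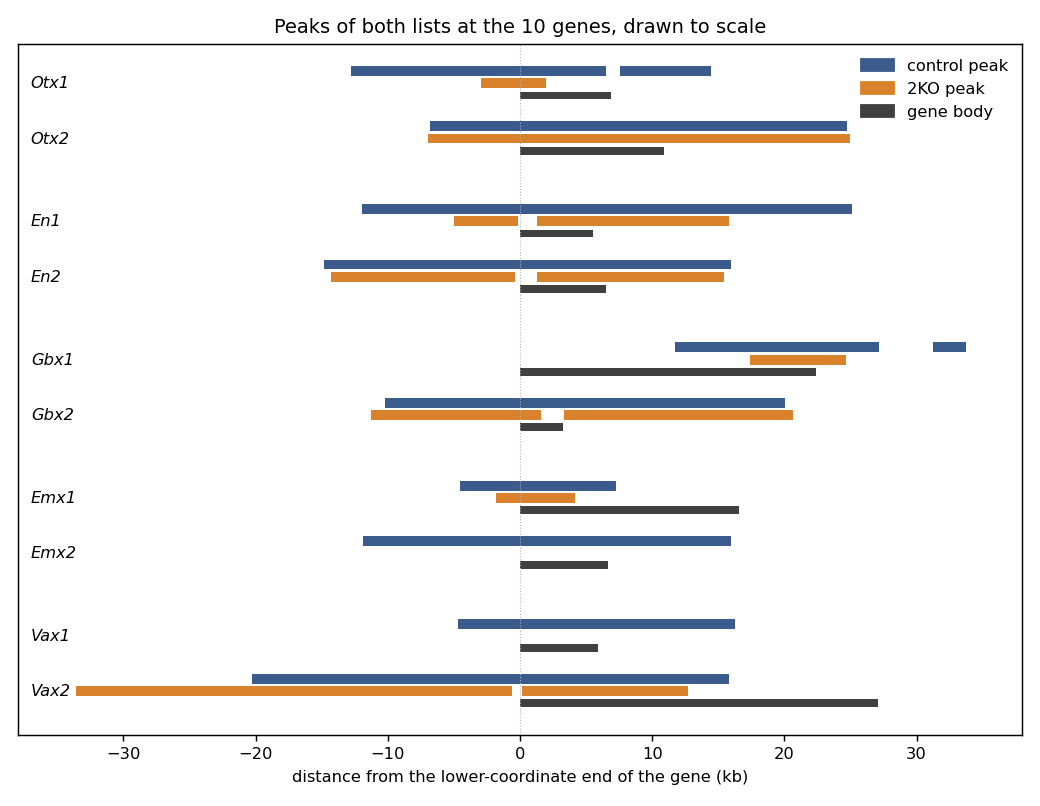
Peaks of the control list, peaks of the 2KO list and gene bodies are drawn to scale in genome orientation, with 0 at the lower-coordinate end of each gene and pairs of paralogs beside each other. Otx2, En2, Gbx2 and Vax2 show 2KO peaks over most of the control domain, Otx1, En1, Gbx1 and Emx1 over a part, and Emx2 and Vax1 show none.

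By retention the order was Otx2 (100%), Gbx2 (94.4%), En2 (91.1%), Vax2 (89.3%), En1 (52.3%), Emx1 (50.8%), Gbx1 (40.4%) and Otx1 (18.8%), then Emx2 and Vax1 (both 0%). No error can be given for this order. Retention of at least 90% was found for 3 of the 10 genes and for 32.6% of all genes with a control peak. Retention of 0% was found for 2 of 10 and for 40.7% of all genes, but for 17.0% of those with at least 10 kb of control peak. Emx2 and Vax1 both belong to the latter group, with 25.9 and 20.6 kb of control peak in the window.

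**Figure D3:**
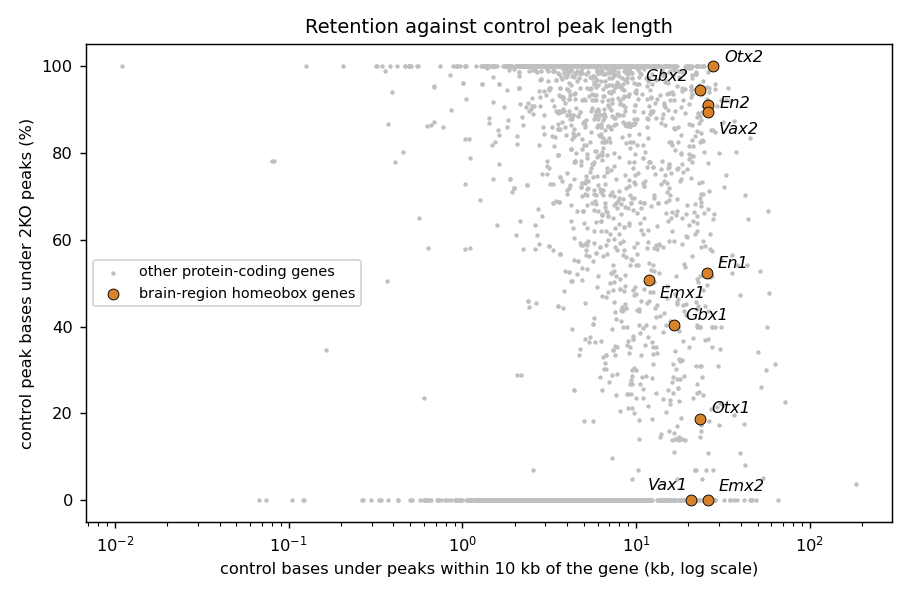
Each point is a protein-coding gene with a control peak within 10 kb: kilobases of control peak in the window (log axis) against the percentage of its control peak bases under 2KO peaks. The 10 brain-region genes lie between 11.8 and 27.7 kb of control peak and spread from 0 to 100% retention.

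The position of the 2KO edges was then examined, after the peaks of the 10 genes had been seen. At En1, En2, Gbx2 and Vax2 the unbroken control peak was met by a pair of 2KO peaks, and the gap between them lay over an end of the gene. The gap measured 1.41 kb at En1, from 127 bp before its annotated start to 1282 bp after it. At Gbx2, which lies on the minus strand, it measured 1.69 kb, from 82 bp before the start to 1605 bp into the gene. At En2 it measured 1.72 kb and began 400 bp below the lower-coordinate end of the gene, and at Vax2 it measured 0.76 kb and began 636 bp below that end. Otx1 had a gap of 1.05 kb at its higher-coordinate end, but between the control peaks, and no 2KO peak lay there. The promoters of En1 and Gbx2 printed above are those in which a 2KO peak ends at such a gap.

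**Figure D4:**
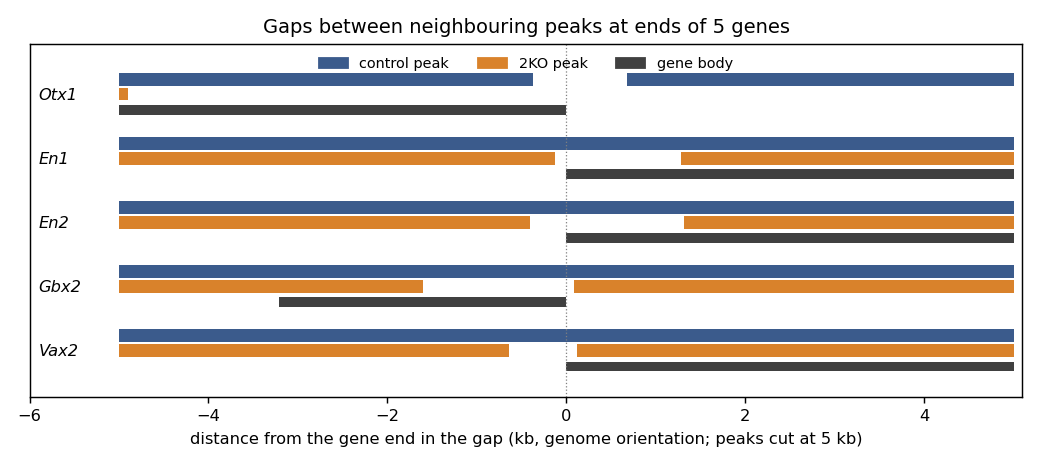
Control peaks, 2KO peaks and gene bodies around the gene end that falls in a gap, which is placed at 0, for 5 genes, in genome orientation and cut at 5 kb on both sides. At En1, En2, Gbx2 and Vax2 the control peak is unbroken and the 2KO peaks leave 0.76 to 1.72 kb uncalled, and at Otx1 the gap is in the control list.

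Gaps of this kind were counted over all protein-coding genes. Of 1225 genes with an end under a control peak and a 2KO peak within 10 kb, 35 (2.86%) had an end in a gap of at most 3 kb between 2KO peaks inside that control peak. Among the brain-region genes it was 4 of 8. Of 180 such genes with the end under a control peak of 20 kb or more it was found at 33 (18.3%), and among the brain-region genes at 4 of 5, the exception being Otx2. With a limit of 1.5 kb on the gap, En1 and Vax2 were the 2 brain-region genes left. In the other direction, 1076 genes had an end under a 2KO peak and a control peak within 10 kb. Of these, 0% had an end in a gap between control peaks inside the 2KO peak. Taken as 3 divided by 1076, with genes as independent, this allows a share of up to 0.279%. That comparison also gave 0% for the 82 genes under 2KO peaks of 20 kb or more. Of the 35 genes, 23 have a strand in the promoter table, and at 21 of these the gap lay over the 5′ end. The share of 5′ ends among all gene ends under such control peaks was not counted. Whether gaps favour 5′ ends was therefore not tested. En1, En2, Gbx2 and Vax2 are among the 35 genes and drew attention to the gaps. Their count is therefore not independent of the choice, and it was not tested. The part that read depth and the joining of peaks in each list have in such gaps was not tested either.

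Of the 10 genes, 8 share a chromosome with another of them, and Otx1 and Otx2 do not. Vax1 and Emx2 lie 288.3 kb apart on chromosome 19, Vax2 and Emx1 lie 1.45 Mb apart on chromosome 6, Gbx1 and En2 lie 3.64 Mb apart on chromosome 5, and Gbx2 and En1 lie 30.7 Mb apart on chromosome 1. The genes without a 2KO peak, Emx2 and Vax1, are thus the closest of these pairs. They lay in 1 stretch of 1.51 Mb without any 2KO peak (58953936 to 60466010), which held 6 whole control peaks of 77.5 kb in all, including those of Vax1 and Emx2. Another of these, of 17.3 kb (59181713 to 59199014), lay 11.3 kb from Vax1, just outside the window. The control peak of Vax1 ends at 59180761, so these peaks lie closer together than the 3 kb used for merging. The other peaks just outside were a control peak 12.6 kb from Emx1 and 2KO peaks 14.1 kb from Gbx2 and 17.5 kb from Vax2, and the farthest one inside was the second of Gbx1. By kilobases of control peak this stretch ranked 11 of the 789 stretches between neighbouring 2KO peaks that hold a whole control peak. Within 500 kb of Emx2, the other 3 control peaks, that of Vax1 among them, kept 0% of 41.1 kb. Around En2 the other 3 control peaks kept 96.6% of 46.8 kb, and around Vax2 the other 5 kept 76.4% of 18.4 kb. Around Vax1, 2 of the other 7 control peaks met a 2KO peak and 7.84% of 66.7 kb was kept. Around Emx1 75.3% of 26.1 kb was kept, around Gbx2 56.6% of 15.7 kb, around Otx2 45.8% of 19.5 kb and around En1 36.8% of 27.9 kb. The other control peak near Gbx1 kept 0% of 3.24 kb, and Otx1 had no other control peak within 500 kb. The surroundings were thus kept to a smaller share than the gene's own peaks at Otx2, En1, Gbx1, Gbx2 and Vax2, and to a larger share at En2, Emx1 and Vax1, while at Emx2 both were 0%. These are descriptions of single places, and neighbouring genes share their surroundings.

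Other patterning genes with which these factors work were taken from a pair of lists. Of 15 genes of the midbrain-hindbrain boundary, 13 had a control peak and 10 of these also a 2KO peak (76.9%, 95% Wilson interval 49.7 to 91.8). Wnt1 and Fgf8, signals of the boundary, kept 99.8% and 86.6% of their control peaks, and Pax5 and Pax8, paired-box factors of the same region, kept 94.9 and 98.2%. Pax2 kept 66.6%. Lmx1b, Irx3 and Meis2 had a control peak and no 2KO peak. Of 25 forebrain genes, 23 had a control peak and 19 of these also a 2KO peak (82.6%, 62.9 to 93.0). Six3 and Six6, factors of forebrain and eye, kept 90.8 and 93.5%, whereas Pax6 kept 52.3%, Sp8 18.2% and Dmrt3 10.9%. Lhx2, Nr2f2, Bmp4 and Emx2os had no 2KO peak, and Emx2os lies on the peak of Emx2. Over both lists the median retention was 82.3% (36 genes with a control peak), compared with 51.5% for the 10 homeobox genes. The median was 54.5% for all genes with a control peak and 64.4% for those with at least 10 kb of it. Over both lists, 29 of the 36 genes also had a 2KO peak (80.6%). That share was 59.8% for all genes with a control peak and 81.2% for those with at least 10 kb. Intervals cover counting error only, and neighbouring genes can share a peak, as Dlx1 and Dlx2 do.

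The genes most like each of the 10 were found by the Euclidean distance over 2 values, the log2 control length and the log2 of the 2KO length plus 1000 bp within the windows. For Otx2 these were Otp and Gfi1, for En2 Cdx2 and Foxa1, for Gbx2 Cyp26c1 and Pitx3, and for Vax2 Dmbx1 and Zic2. Pipox and Trp73 were nearest to Otx1, Ebf4 and Gdf6 to Gbx1, and Lrp1b and Bhlha9 to Emx1. Arid3b and Myl10 were nearest to Emx2, and Irf8 and Osr2 to Vax1. Nkx2-2 was among the genes nearest to En1. Otp had 27.9 kb of control and 27.8 kb of 2KO peak in its window, against 27.7 and 27.8 kb for Otx2. Retention was not part of the distance and could differ. It was 85.1% at Otp and 99.9% at Gfi1, against 100% at Otx2. At Dmbx1 and Zic2 it was 67.1 and 58.6%, against 89.3% at Vax2. The distances ran from 0.0088 at Otp to 0.135 at Trp73 on the log2 scale. None of the 10 genes had its own paralog among the nearest pair. Only 2 genes were taken per member out of 3219 with a control peak, so this outcome says little about paralogs.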

How the data were processed

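The submitters' processing notes name Bowtie2 2.3.3.1, SAMtools 1.9 and the mouse build mm10. For each genotype the authors deposited a single table of peak intervals, whose columns are chromosome, start and end per the file headers. Which peak caller and threshold were used, whether input was subtracted and whether replicates were pooled is not given in the sources used here. Input libraries and the Eed cKO libraries were not analysed here. Positions are given 1-based, since the deposited starts were taken to count from 0.

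Overlap required 1 bp. Retention is the share of bases of a gene's control peaks that lie under 2KO peaks. The overlap code was tested on simulated data with known overlaps. Python 3.11.15, numpy 2.4.6, pandas 2.3.3, scipy 1.17.1 and matplotlib 3.10.9 were used. The RefSeq gene table holds no strand, so strand came from the promoter table. Named were all 10 genes, other genes on their peaks, genes of the 2 lists and the 2 nearest genes per member; a few of these are not reported here. The counts of gaps at gene ends and the values of the surroundings were added after the peaks had been seen. The genes and lists were chosen with earlier results of these data known.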

Additional observations from a re-analysis of the deposited data

How the results depend on the processing

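No paired analysis was possible because replicates had no peak lists of their own, so none could be left out either. With flanks of 0, 5 and 20 kb, peaks of at least 3 kb, equal numbers of the widest peaks, 50% of a control peak (or 1 kb per gene) required, and close peaks merged within 3 kb, all 10 genes kept a control peak and 8 had a 2KO peak. Under these settings, in the same order, the pooled retention (58.4%) was 60.51, 58.96, 54.37, 58.96, 58.96, 53.92 and 56.44%. The median difference within pairs (54.1 points) was 50.77 with flanks of 0 or 5 kb, with peaks of at least 3 kb and with equal numbers, 89.33 with 50% required and 59.64 after merging. 2KO bases as a share of control bases in the windows (58.4%) were 59.41% with 5 kb and 60.57% after merging. No pair changed its order under these 7 settings. The Gbx pair ranged most, from 47.5 to 94.4 points. With 50% required, the Otx pair (100 points) and the Gbx pair (94.4) passed the Vax pair (89.33) as the most different. Gbx1 then counted as 0% because its larger control peak was covered to 46.9%, just under the limit. Merging within 3 kb closes the gaps at gene ends by construction. With a limit of 1.5 kb in place of 3 kb, chosen after the data were seen, 2 of the brain-region genes had an end in such a gap, and with 5 kb 4 did. The unknown depth limits every statement on a missing peak.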

Other observations

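Gaps between 2KO peaks over a gene end were also found at other genes with wide control domains, and these values were looked up after the gaps at En1, En2, Gbx2 and Vax2 had been seen. The 31 further genes included Tlx1, Dlx6, Zic2, Foxd2, Foxd1, Sox1, Nkx6-1, Isl1, Mnx1 and Pou3f2, which encode developmental transcription factors. They also included Cadps2, Ttc6 and Grik3, which do not. The control peak of 39.5 kb around the Cadps2 gap is also that of its neighbour Fezf1, a gene of the forebrain list. Their control peaks measured at least 16.7 kb and the gaps at most 2.95 kb. At Tlx1, a factor needed for the spleen, a gap of 2468 bp lay in a control peak of 49.4 kb. At Isl1, a factor of motor and sensory neurons, a gap of 1193 bp lay in one of 30.6 kb. Pitx3 and Cadps2 were the 2 genes with a known strand whose gap lay over the 3′ end. Elovl3, beside Pitx3, lies under the same control peak of 23.4 kb and has its lower-coordinate end in another gap of 1152 bp. Rsrc1 and Shox2 share 1 gap, as do Kirrel2 and Nphs1, so the 35 genes are not independent.

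Counted over gaps rather than genes, 86 gaps of at most 3 kb between 2KO peaks lay inside a control peak, and 33 of them (38.4%, 95% Wilson interval 28.8 to 48.9) held an end of a protein-coding gene. The 33 include the gaps at En1, En2, Gbx2 and Vax2, which prompted the count. In the reverse direction 36 gaps between control peaks lay inside a 2KO peak, and 0 of them held a gene end (95% Wilson interval 0 to 9.64%). Without regard to the other list, 39 of 148 gaps between 2KO peaks (26.4%, 19.9 to 34.0) and 28 of 281 between control peaks (9.96%, 6.98 to 14.0) held a gene end. The gap at the end of Otx1 is of this last kind. Whether read depth, the threshold or the caller's joining of peaks moves with these counts was not tested.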
